A study of Rattus norvegicus with 15 samples.

Results

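The calcium-sensing receptor and the calcitonin receptor family, 6 of 14218 named genes on the array, were followed in the rat subfornical organ: Casr, Calcr, Calcrl, Ramp1, Ramp2 and Ramp3. They were chosen by symbol, as every probe set whose single annotated gene is one of the 6, which gave 8 of 31099 probe sets. Calcr and Calcrl each have 2 probe sets, shown separately, and the other 4 genes have 1 each. The array was an Affymetrix rat expression array, on which a probe set is a group of short probes read as 1 signal.

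The subfornical organ is a small brain structure without a blood-brain barrier that senses sodium, osmolality and circulating hormones and takes part in the control of thirst. The tissue came from water-deprived rats, from rats deprived of food for 48 h and from untreated control rats. All were male Sprague Dawley rats 10 to 12 weeks old. Each group had 5 arrays, and each array carried RNA pooled from the organs of 5 animals, so differences between single animals are not seen. The length of water deprivation is not given in the sources used here, and the series design text, read literally, applies the denial of food to every condition. In whole tissue, fewer cells of a type and less RNA per cell cannot be told apart.

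Casr is a G protein-coupled receptor that senses extracellular calcium, best known from the parathyroid gland and the kidney. Calcr binds calcitonin. Together with a receptor activity-modifying protein (RAMP), a small single-pass membrane protein, it forms amylin receptors. Calcrl needs a RAMP to reach the cell surface: with Ramp1 it is the receptor for calcitonin gene-related peptide (CGRP), and with Ramp2 or Ramp3 it is a receptor for adrenomedullin. Amylin and calcitonin receptors are known in the subfornical organ and other organs around the ventricles.

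In water deprivation Casr and 1 of the Calcr probe sets had their highest signals of the study, on the same 3 arrays. Those 3 also had the lowest RNA quality measure of that group, and neither probe set was called in the fit of the 3 groups. In food deprivation the other Calcr probe set was called higher than in controls, by a log2 difference of 0.80. These 2 groups also differed in RNA quality, and with the array set by that measure in the fit the difference was 0.26 and not called. Of the 8 probe sets, 6 passed the filter on dim values (mean over all arrays above the 30th percentile, a log2 of 5.11). The Ramp3 probe set and 1 Calcrl probe set did not.

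The upstream sequence of Calcr is shown because its probe set 1387488_a_at was high on the same arrays as Casr. The other Calcr probe set was not. The RefSeq window for Casr in the table used lies inside the annotated gene and is not shown. The 250 bases before the Calcr start, from RefSeq on build GRCr8, chr4:32691076-32691325, minus strand, read as follows, with matches to a CRE core (TGACG) and to a GC box (GGGCGG, or CCGCCC on the other strand) in capitals.
Calcr upstream: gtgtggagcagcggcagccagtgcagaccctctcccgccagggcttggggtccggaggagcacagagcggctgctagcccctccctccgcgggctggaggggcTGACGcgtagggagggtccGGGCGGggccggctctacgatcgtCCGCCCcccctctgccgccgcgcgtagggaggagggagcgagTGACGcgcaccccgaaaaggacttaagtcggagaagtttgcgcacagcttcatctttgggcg
The first TGACG begins 147 bases before the start and the second 62 bases before it. CRE is the cAMP response element, and GC boxes are sites of Sp-type factors. Of 33469 rat windows of the same length, 18.22% hold TGACG on either strand and 30.47% hold a GC box. The full CRE (TGACGTCA, in 1.587% of windows), an AP-1 site (TGANTCA, 6.34%) and an NFAT core (TGGAAA, 19.7%) were searched on both strands and have no match in the Calcr window. The window is 70% G and C, against a median of 51.2% over all windows. These matches describe letters and not bound sites.

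The arrays fall into 2 sets by RNA quality measure, and the sets are not spread evenly over the groups. The measure is the log2 ratio of 5′ to 3′ probe sets of the control genes beta-actin and GAPDH, averaged over both. It lay between -0.86 and -0.71 on 7 arrays, which are water-deprived arrays 1 and 2 and all 5 food-deprived arrays. It lay between -2.81 and -1.24 on 8 arrays, which are water-deprived arrays 3, 4 and 5 and all 5 controls. These are called the high and the low set here. In the low set, -2.81 was the value of water-deprived array 3, and the other arrays lay between -1.67 and -1.24. Within a set, water deprivation can be compared with food deprivation (high set) or with control (low set), and food deprivation and control share no set. The fit of the 3 groups was therefore repeated with the array set as a term. With the term, food deprivation is set against control only through the water-deprived arrays, 2 in the high set and 3 in the low set. Of the marker genes for the tissue, Agtr1a, an angiotensin receptor, Scn7a and some probe sets of Lepr were above the filter. Agtr1b, Nos1 and the other Lepr probe sets were not. The hypothalamic peptide genes Avp, Oxt and Pmch were lower in food deprivation than in control (log2 difference -3.14, -3.12 and -2.46). Their adjusted p in the limma fit without the term was 0.0141 for Avp, 0.0160 for Oxt and 0.0266 for Pmch. Once the array set was a term the differences were -0.10, -0.10 and -0.09, and none was called (limma adjusted p 0.980, 0.983 and 0.983).

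Casr signal was 65.8, 63.1, 127, 176 and 148 on water-deprived arrays 1 to 5. It was 49.5, 51.3, 33.3, 42.1 and 25.7 on food-deprived arrays 1 to 5, and 51.2, 32.6, 51.1, 77.0 and 39.3 on control arrays 1 to 5. Every water-deprived array stood above every food-deprived array, as held for 1.47% of the probe sets tested. Against control the groups overlapped, because control array 4 was above water-deprived arrays 1 and 2. The means were 116 ± 50.3 in water deprivation, 40.4 ± 10.9 in food deprivation and 50.3 ± 17.0 in control (SD, n = 5 each). In order of level, water deprivation came first, then control, then food deprivation, and the last 2 did not differ beyond their spread.

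**Figure D1:**
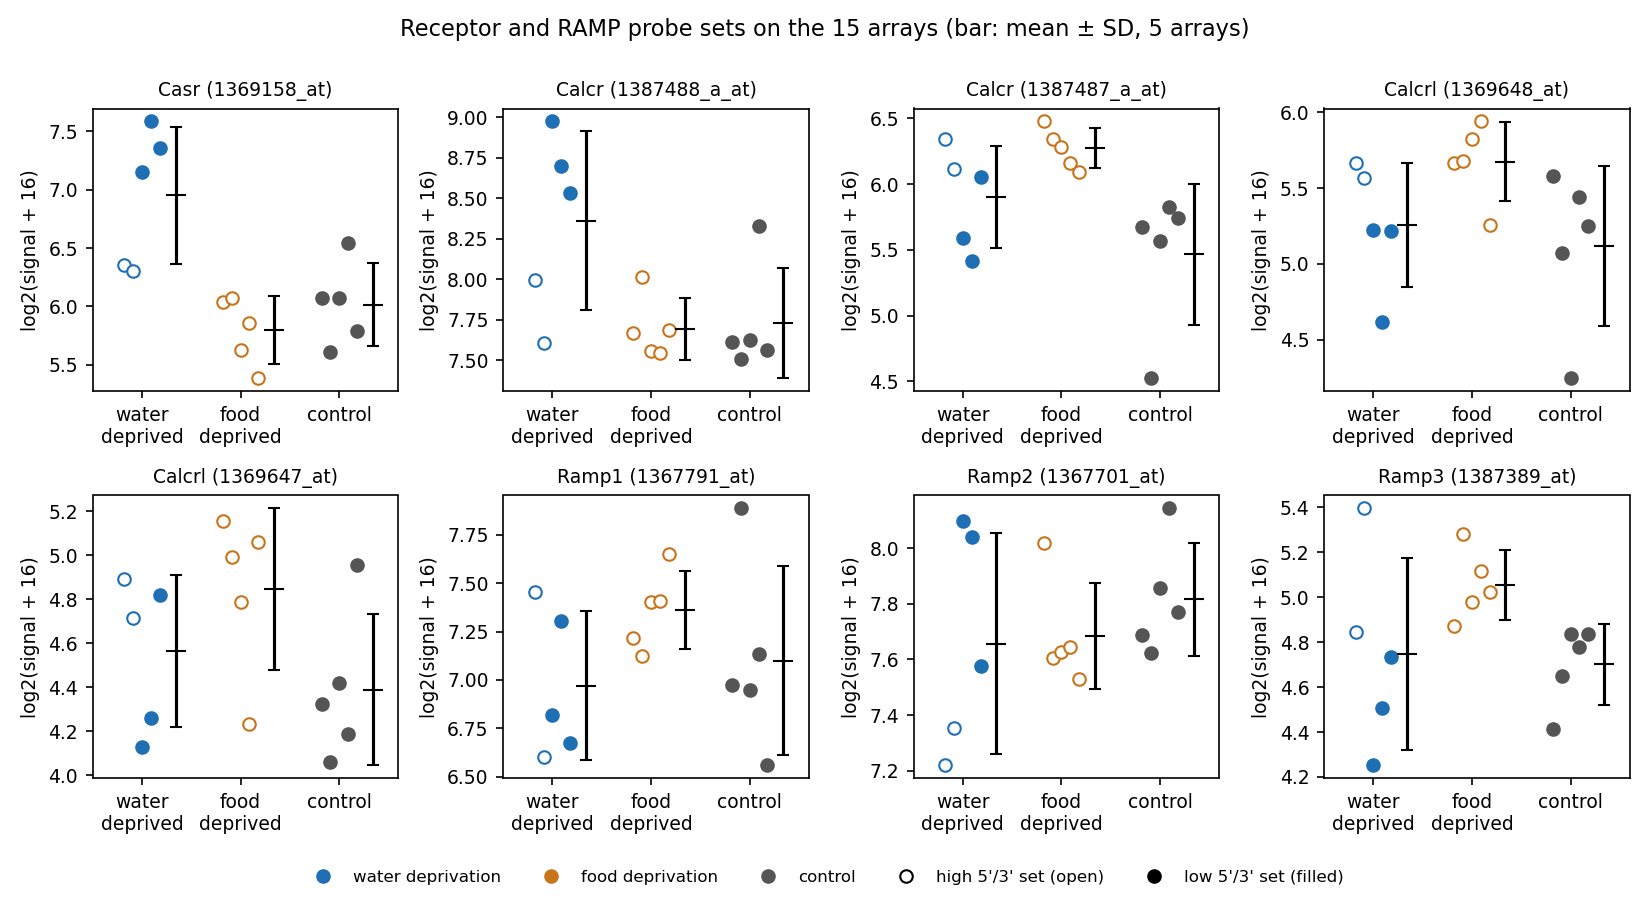
Signal of the 8 probe sets on the 15 arrays, as log2(signal + 16) on the vertical axis, with water-deprived, food-deprived and control arrays from left to right. Open points are arrays of the high 5′/3′ set, filled points those of the low set, and the bars give the mean and SD of 5 arrays; the 3 filled water-deprived points of Casr and of Calcr 1387488_a_at lie above every other array.

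The log2 difference of Casr was 0.94 for water deprivation minus control (SE 0.25, limma adjusted p = 0.585), which is 1.92-fold. For water deprivation minus food deprivation it was 1.16 (SE 0.25, limma adjusted p = 0.0597), which is 2.23-fold. Neither passed the threshold of 0.05. At an unadjusted p below 0.05, 2 of the 6 tested members passed in each of these comparisons, Casr and a Calcr probe set, as did 6.50% of all tested probe sets against control and 15.8% against food deprivation. Of 21729 probe sets tested, 0.0046% were called in the comparison with control and 0.152% in that with food deprivation. Food deprivation minus control was -0.22 (SE 0.25, limma adjusted p = 0.62).

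Within the low set the 3 water-deprived arrays (127 to 176) did not overlap with the 5 controls (32.6 to 77.0), a pattern of 1.12% of the probe sets tested. With the array set as a term, Casr was called higher in water deprivation than in control, by a log2 difference of 1.35 (SE 0.20, limma adjusted p = 0.0227), which is 2.55-fold. It was 1 of 6 probe sets called in that fit, all of them higher (0.0276% of those tested). The call did not hold in a fit of the 8 low-set arrays alone, which gave the same difference with an adjusted p of 0.307. It held with 4 of the 10 arrays of the comparison left out in turn: water-deprived arrays 1 and 2 and control arrays 2 and 4. Water-deprived arrays 1 and 2 are of the high set and cannot move this difference, which stayed at 1.35 without either. The call was lost without water-deprived array 3, 4 or 5 and without control array 1, 3 or 5, at differences between 1.24 and 1.48 over all 10.

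Within the high set, Casr was 65.8 and 63.1 on the 2 water-deprived arrays, and 25.7 to 51.3 on the 5 food-deprived arrays. These do not overlap either, in a pattern shared by 10.4% of all tested probe sets. In the fit with the term the difference was 0.53 (SE 0.23), with a limma adjusted p of 0.447, and 0% of all probe sets were called (2174 at an unadjusted p below 0.05). Casr was above the other group in both sets, as were 0.175% of the probe sets tested (38 of 21729). Within water deprivation itself Casr averaged 64.4 on the 2 high-set arrays and 150.3 on the 3 low-set arrays.

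Calcr probe set 1387488_a_at read 239.7, 179, 487, 399 and 355 on water-deprived arrays 1 to 5. It read 188, 243, 172, 171 and 189.8 on food-deprived arrays 1 to 5, and 180.0, 166, 182, 306 and 174 on control arrays 1 to 5. Water-deprived arrays 3, 4 and 5 were above every other array of the study. Water-deprived arrays 1 and 2 lay within the range of the food-deprived arrays and of the controls. Control array 4 stood apart from the other controls, as it did less clearly for Casr. The means were 332 ± 123 in water deprivation, 193 ± 29.3 in food deprivation and 202 ± 58.9 in control (SD, n = 5 each).

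Water deprivation minus control was 0.63 for this probe set (SE 0.22, limma adjusted p = 0.719). Water deprivation minus food deprivation was 0.67 (SE 0.22, limma adjusted p = 0.169). Food deprivation minus control was -0.04 (SE 0.22, limma adjusted p = 0.946). None passed the threshold. Adding the array set made water deprivation minus control 1.01 (SE 0.18), or 2.01-fold, with a limma adjusted p of 0.127. Without control array 4, that value was 1.16 and passed (limma adjusted p = 0.00415). It passed with none of the other 9 arrays left out. Casr and this Calcr probe set were the 2 of the 6 tested whose 3 low-set water-deprived arrays were all above the 5 controls, as were 1.12% of probe sets. In the high set the water-deprived arrays were 179 and 239.7, inside the food-deprived range of 171 to 243, and the difference with the term was 0.11 (SE 0.21).

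**Figure D2:**
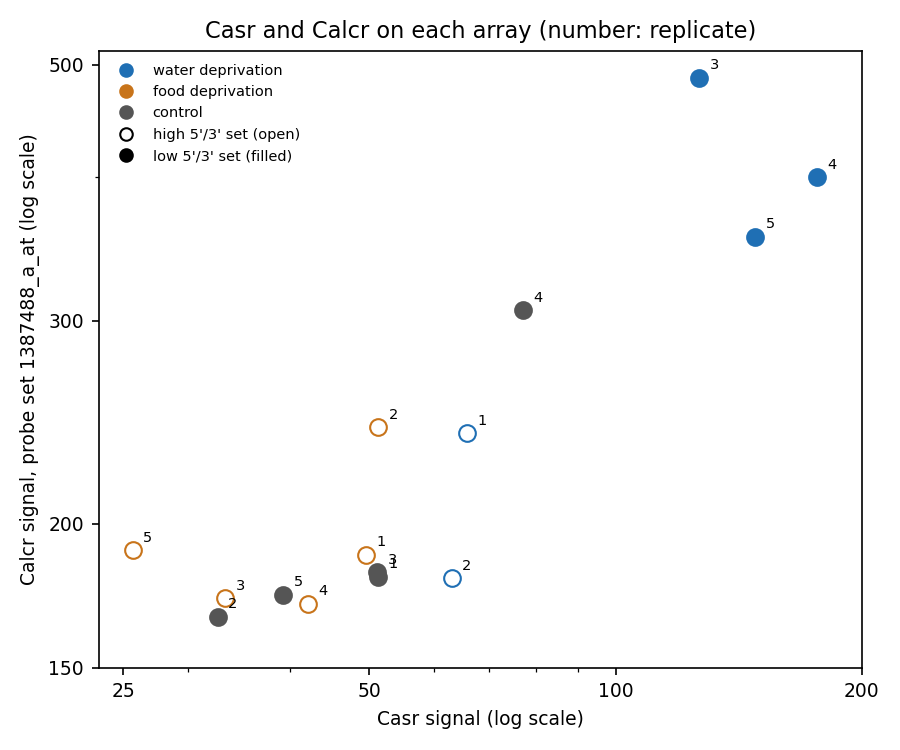
Casr signal (horizontal, log scale) against the signal of Calcr 1387488_a_at (vertical, log scale), 1 point per array, numbered by replicate, with open points for the high 5′/3′ set and filled points for the low set. Water-deprived arrays 3, 4 and 5 are at the upper right, control array 4 (Casr 77.0, Calcr 306) is next, and the remaining 11 arrays have Casr signals of 25.7 to 65.8.

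The plot of Casr against Calcr shows 4 arrays set off from the rest, so no correlation is given over it. Neuron markers overlapped between the groups. Over the 11 tested, the summed signal was 5687 to 8347 on the 3 low-set water-deprived arrays and 3367 to 11279 on the 5 controls. In the other comparison within a set it was 4498 to 7220 on the 2 high-set water-deprived arrays and 5345 to 9390 on the food-deprived arrays. In water deprivation minus control limma called none of the 11, nor did any pass at an unadjusted p below 0.05. The 7 tested microglia markers were all below 0 in that comparison, with a median log2 difference of -0.38, and at -0.31 with the term, again with all 7 below 0. In the fit of the 3 groups limma called none of them, and 4 of 7 passed at an unadjusted p below 0.05. Their summed signal was 497 to 831 in water deprivation, 774 to 1036 in food deprivation and 574 to 1127 in control. The 5 choroid plexus and ependyma markers summed to 7859 to 10322 on the 2 high-set water-deprived arrays and 2469 to 6330 on the 3 low-set ones. Those sums were 5156 to 9427 in food deprivation and 3398 to 7180 in control. The 7 tested oligodendrocyte markers were all above 0 in food deprivation minus control, with a median of 0.65, beside 0.05 over all tested probe sets. With the term 4 of 7 were, with a median of 0.06. In water deprivation minus food deprivation 0 of 7 were above 0 (median -0.71), and in water deprivation minus control 1 of 7 (median -0.14). The median of the 8 astrocyte markers was 0.10 in food deprivation minus control. Limma called none of either list. Among the tissue markers, the brighter Agtr1a probe set read 147 to 416 in water deprivation, 143 to 186 in food deprivation and 54.4 to 279 in control. Its water deprivation minus control difference was 0.74 (SE 0.34, limma adjusted p = 0.752) and, with the term, 1.23 (SE 0.32, limma adjusted p = 0.499), or 2.35-fold. The other Agtr1a probe set above the filter read 70.7 to 102, 71.8 to 109 and 20.9 to 98.8 in the same order of groups. Of the 6 tested tissue markers, 2 were above 0 in water deprivation minus control, with a median log2 difference of -0.43. With the term all 6 were above 0, with a median of 0.30. The part of these markers in the Casr and Calcr values was not tested.

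**Figure D3:**
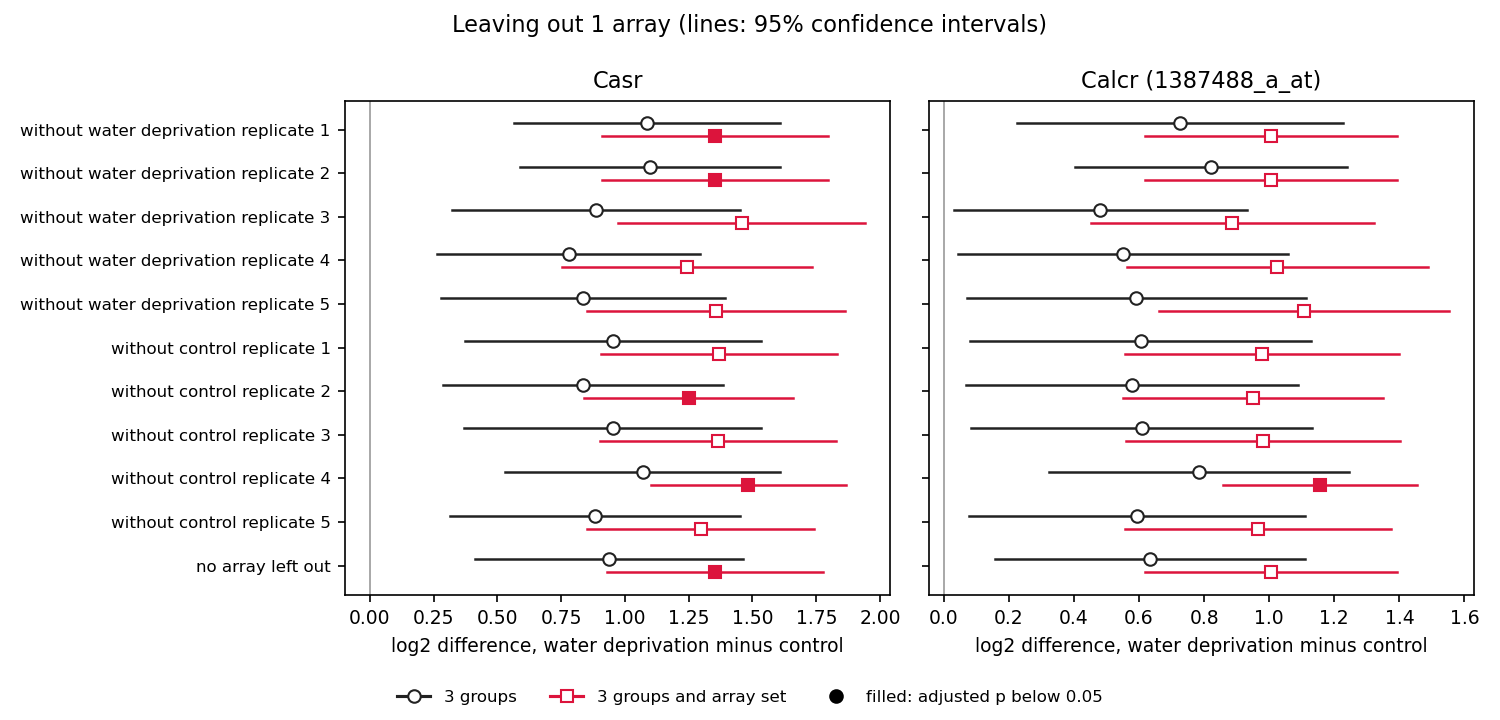
Log2 difference of Casr (left) and Calcr 1387488_a_at (right), water deprivation minus control, with each of the 10 arrays left out in turn and with none left out (bottom). Circles are the fit of 3 groups, squares the fit with the array set term, lines are 95% confidence intervals and filled symbols have an adjusted p below 0.05; Casr lies between 0.78 and 1.10 without the term and between 1.24 and 1.48 with it.

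The second Calcr probe set, 1387487_a_at, did not follow the first. It read 65.2, 53.2, 32.1, 26.7 and 50.3 on water-deprived arrays 1 to 5. It read 73.1, 65.2, 61.7, 55.7 and 52.2 on food-deprived arrays 1 to 5, and 35.1, 6.99, 31.4, 40.7 and 37.5 on control arrays 1 to 5. Every food-deprived array was above every control, and the water-deprived arrays spanned both groups. The means were 45.5 ± 15.8 in water deprivation, 61.6 ± 8.20 in food deprivation and 30.3 ± 13.5 in control (SD, n = 5 each).

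This probe set was the 1 of 6 tested that was called in food deprivation minus control, with a log2 difference of 0.80 (SE 0.23, limma adjusted p = 0.0407), or 1.75-fold. In that comparison 8.53% of all probe sets were called and 4.77% were called higher (1037 higher and 817 lower), while 9.84% had every food-deprived array above every control. Median centring turned that split to 652 higher and 1178 lower, quantile normalization to 813 and 972. With the array set in the fit the difference was 0.26 (SE 0.37, limma adjusted p = 0.846), and 0% of all probe sets were called in this comparison (1879 at an unadjusted p below 0.05). Food deprivation and the high set cannot be told apart within these 2 groups. Inside the low set, the water-deprived arrays (26.7 to 50.3) overlapped with the controls. Inside the high set, the water-deprived arrays (53.2 and 65.2) lay within the food-deprived range.

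The food call held with 1 of 10 arrays left out, control array 4, and was lost without any of the other 9, at differences between 0.57 and 0.89. Water deprivation minus control was 0.44 (SE 0.23) and water deprivation minus food deprivation -0.37 (SE 0.23), with limma adjusted p of 0.752 and 0.445. The 2 probe sets of Calcr thus had opposite signs in water deprivation minus food deprivation, neither past the threshold. Both carry the array maker's suffix for probes shared by several transcripts of 1 gene. Which transcripts each one reads is not given in the sources used here.

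**Figure D4:**
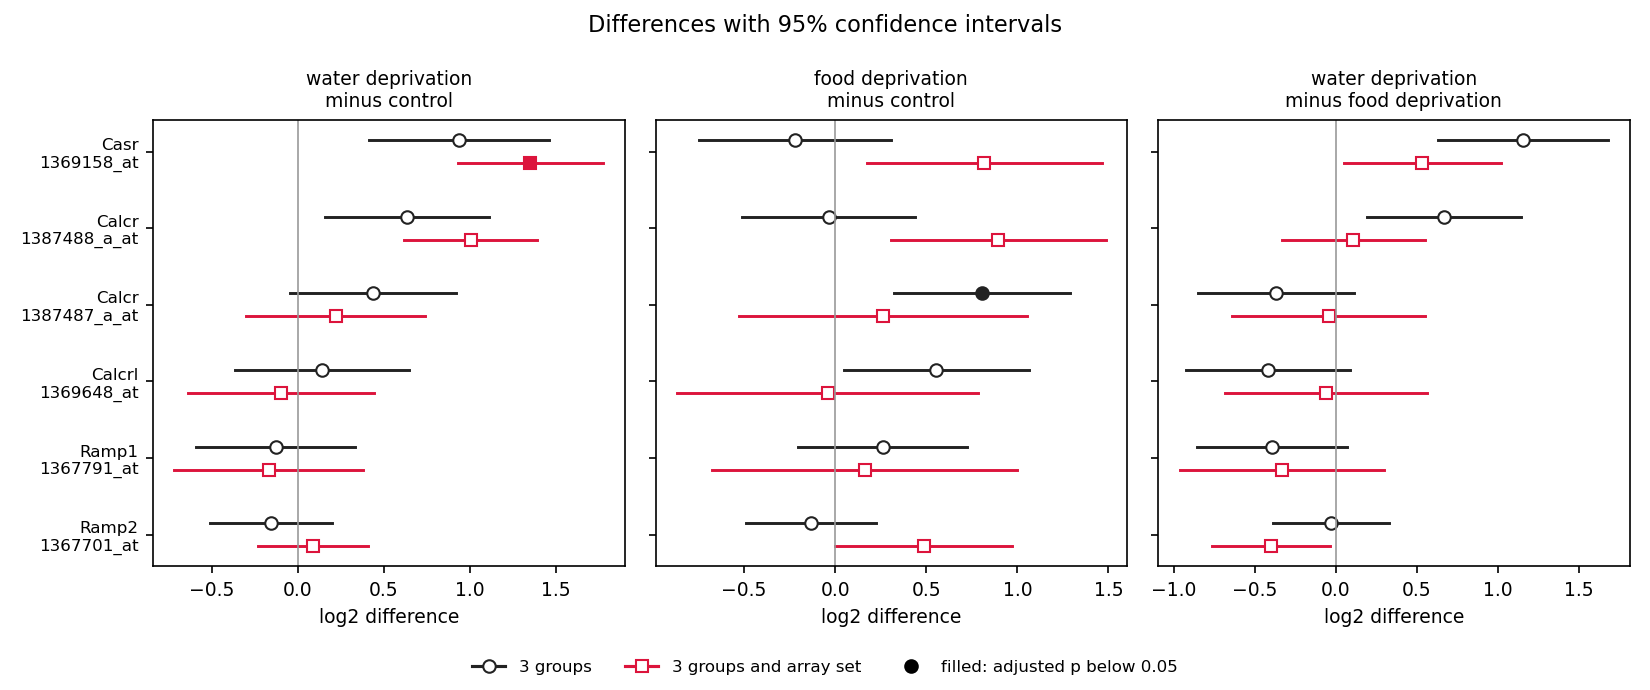
Log2 differences of the 6 tested probe sets, in 3 panels by comparison, with circles for the fit of 3 groups, squares for the fit with the array set term, lines for 95% confidence intervals and filled symbols for an adjusted p below 0.05. Casr in water deprivation minus control (1.35, with the term) and Calcr 1387487_a_at in food deprivation minus control (0.80, without it) are the 2 filled symbols.

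Calcrl, the receptor shared by CGRP and adrenomedullin, was dim. Probe set 1369648_at read 34.8, 31.3, 21.3, 8.54 and 21.2 on water-deprived arrays 1 to 5, 34.8, 35.2, 40.7, 45.4 and 22.2 on food-deprived arrays 1 to 5, and 31.9, 17.7, 2.98, 27.5 and 22.0 on control arrays 1 to 5. All 3 groups overlapped. The means were 23.4 ± 10.3 in water deprivation, 35.7 ± 8.68 in food deprivation and 20.4 ± 11.1 in control (SD, n = 5 each). Food deprivation minus control was 0.56 (SE 0.24, limma adjusted p = 0.153) and -0.04 with the array set term. Water deprivation minus control was 0.14 (SE 0.24) and water deprivation minus food deprivation -0.42 (SE 0.24), with limma adjusted p of 0.918 and 0.409. The second Calcrl probe set, 1369647_at, stayed below the filter, at 1.5 to 13.7 in water deprivation, 2.8 to 19.7 in food deprivation and 0.68 to 15 in control.

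Ramp1, the CGRP partner of Calcrl and also a partner of Calcr, read 159.6, 81.1, 96.7, 142 and 86.0 on water-deprived arrays 1 to 5. It read 133, 124, 153, 154 and 185 on food-deprived arrays 1 to 5, and 109, 221, 108, 124 and 78.2 on control arrays 1 to 5. The groups overlapped in every pair, and the controls alone spanned the whole range. The means were 113 ± 35.4 in water deprivation, 149.7 ± 23.6 in food deprivation and 128 ± 54.5 in control (SD, n = 5 each). The log2 differences were -0.13 for water deprivation minus control, 0.26 for food deprivation minus control and -0.39 for water deprivation minus food deprivation (SE 0.22 for each). Their limma adjusted p values were 0.915, 0.484 and 0.397, and with the array set term the differences were -0.17, 0.16 and -0.33. For water deprivation minus control the 95% interval was -0.59 to 0.33, so a change of up to about those sizes is not resolved.

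Ramp2, the adrenomedullin partner of Calcrl and abundant in blood vessels, read 133, 147.5, 258, 247 and 175 on water-deprived arrays 1 to 5. It read 243, 179, 182, 184 and 169 on food-deprived arrays 1 to 5, and 190.1, 181, 216, 267 and 203 on control arrays 1 to 5. The 2 lowest arrays of the study were water-deprived arrays 1 and 2, of the high set, both below all 5 food-deprived arrays. Such a pattern held for 11.4% of all tested probe sets. The means were 192 ± 57.3 in water deprivation, 191 ± 29.7 in food deprivation and 211 ± 33.6 in control (SD, n = 5 each).

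No comparison of Ramp2 passed. The differences were -0.16 for water deprivation minus control, -0.13 for food deprivation minus control and -0.03 for water deprivation minus food deprivation (SE 0.17 for each), with limma adjusted p of 0.863, 0.666 and 0.956. In the fit with the term they were 0.087, 0.49 and -0.40, so that the sign of the first 2 turned. The summed signal of the 11 tested endothelial markers was 929 to 1249.8 in water deprivation, 1079 to 1466 in food deprivation and 969 to 1245 in control. Of those, Cldn5, a tight junction gene, was called higher in food deprivation than in control (0.64, limma adjusted p = 0.0407). Over the 11, 8 differences were above 0 in that comparison and Vwf was the lowest, at -0.20. Their median was 0.06, beside 0.05 over all tested probe sets. Among the 6 tested mural markers Acta2, the smooth muscle actin, was called higher (0.56, limma adjusted p = 0.0340), while Myh11, the smooth muscle myosin heavy chain, was at -0.39 and not called (limma adjusted p = 0.182). These are 1 of 11 and 1 of 6, beside 4.77% of all tested probe sets called higher. In the fit with the array set Cldn5 was at 0.93, Acta2 at 0.03 and Myh11 at 0.13, and limma called none of them (adjusted p 0.495, 0.977 and 0.912). Whether these play a part in the Calcrl or Ramp2 values was not tested.

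Ramp3, the other adrenomedullin partner, stayed below the filter. Its signal was 3.05 to 26.1 in water deprivation, 13.3 to 22.9 in food deprivation and 5.28 to 12.6 in control. Every food-deprived array was above every control, at signals below the level that was tested, a pattern of 9.84% of the probe sets that were tested. In a fit with no filter the differences were 0.05 for water deprivation minus control, 0.35 for food deprivation minus control and -0.31 for water deprivation minus food deprivation, and none passed (limma adjusted p 0.971, 0.216 and 0.421).

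In the fit with the term, 3 probe sets were called lower in the high array set than in the low one: Casr (-1.04, limma adjusted p = 0.0127), Calcr 1387488_a_at (-0.93, limma adjusted p = 0.0139) and Ramp2 (-0.62, limma adjusted p = 0.0366). That is 3 of 6, where 15.9% of all probe sets were called and 6.44% called lower. Only water deprivation has arrays in both sets, so these values compare its 2 high-set arrays with its 3 low-set arrays. For Casr and this Calcr probe set, the food deprivation minus control difference with the term, 0.82 and 0.90, was positive only through that subtraction, and neither was called (limma adjusted p 0.515 and 0.485). The 3 low-set water-deprived arrays also differed from the 2 high-set ones in hypothalamic signal. The summed signal of the 6 tested marker genes of the subfornical organ and nearby hypothalamus was 501 to 537 on the 2 high-set water-deprived arrays, 1428 to 4029 on the 3 low-set ones, 371 to 475 in food deprivation and 1298 to 3766 in control. In water deprivation the highest signals in that list were 1313 for Avp and 2344 for Oxt. The part of tissue content in the Casr and Calcr values was not tested.

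The ligands of these receptors gave little signal. Calca encodes calcitonin and CGRP, and its tested probe set read 7.05 to 55.3 in water deprivation, 12.5 to 50.1 in food deprivation and 5.29 to 21.1 in control. Adm, adrenomedullin, read 10.1 to 26.4 in water deprivation, 16.4 to 33.4 in food deprivation and 11.5 to 31.5 in control. Neither was called in any comparison of the 3 groups, nor passed at an unadjusted p below 0.05. The log2 differences of Calca were 0.44 in water deprivation minus control and 0.51 in food deprivation minus control (SE 0.31, limma adjusted p 0.797 and 0.308), and those of Adm -0.13 and 0.08. In the fit with the term the sign of Calca turned, to -0.08 and -0.79 (SE 0.25 and 0.37, limma adjusted p 0.986 and 0.581), and those of Adm were -0.01 and 0.37. The other probe sets of Calca, and those of Calcb, of Iapp (amylin) and of Pth (parathyroid hormone), were below the filter. The tested Calca probe set was just above it, at a mean log2 of 5.15 against 5.11.

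Among other receptors and partners, Crcp (a CGRP receptor component), Ackr3 (a decoy receptor that also binds adrenomedullin) and Pth1r (a parathyroid hormone receptor) were tested, and in the fit of the 3 groups limma called none in any comparison, at an adjusted or an unadjusted p below 0.05. In water deprivation minus control their differences were 0.02, 0.29 and -0.01. In food deprivation minus control they were 0.15, -0.06 and 0.31. The term made them 0.03, 0.27 and -0.21 in water deprivation minus control, and 0.18, -0.09 and -0.20 in food deprivation minus control. Gpr182 and Pth2r were below the filter.

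The signalling genes downstream were counted in 3 lists. On the Gs and cAMP side, used by Calcr and Calcrl, 1 of 13 tested genes was called. Creb1, the transcription factor that binds CREs, was lower in food deprivation than in control (-0.55, SE 0.10, limma adjusted p = 0.0060). On the Gq, Gi and calcium side, used by Casr, 2 of 12 were called, both lower in food deprivation than in control. Over all tested probe sets 8.53% were called in that comparison. The log2 difference was -0.51 for Gna11, a Gq-class alpha subunit (SE 0.13, limma adjusted p = 0.0291), and -1.71 for Gnai2, an inhibitory alpha subunit (SE 0.34, limma adjusted p = 0.0080). Of the 6 tested genes of receptor desensitisation and trafficking limma called none, and 1 passed at an unadjusted p below 0.05. At that unadjusted threshold 3 of 13 passed on the cAMP side and 8 of 12 on the calcium side, beside 26.3% of all tested probe sets.

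In water deprivation minus control no gene of the 3 lists was called by limma, and 3 of 31 passed at an unadjusted p below 0.05, beside 6.50% of all tested probe sets. The 2 with the greatest size of difference were Itpr1 (0.81), an inositol trisphosphate receptor, and Gnai2 (-0.79) on the calcium side, and Creb1 (-0.28) and Prkar2b (-0.25), a regulatory subunit of protein kinase A, on the cAMP side. The median difference in food deprivation minus control was 0.09 on the cAMP side, -0.05 on the calcium side and -0.16 in the desensitisation list, beside 0.05 over all tested probe sets. None of the 36 tested genes in the 5 lists was called by limma with the term, in any comparison, and 1 passed in each at an unadjusted p below 0.05, beside 5.96% to 10.0% of all tested probe sets. In that fit the food deprivation minus control difference was -0.27 for Creb1, -0.13 for Gna11 and 0.08 for Gnai2.

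**Figure D5:**
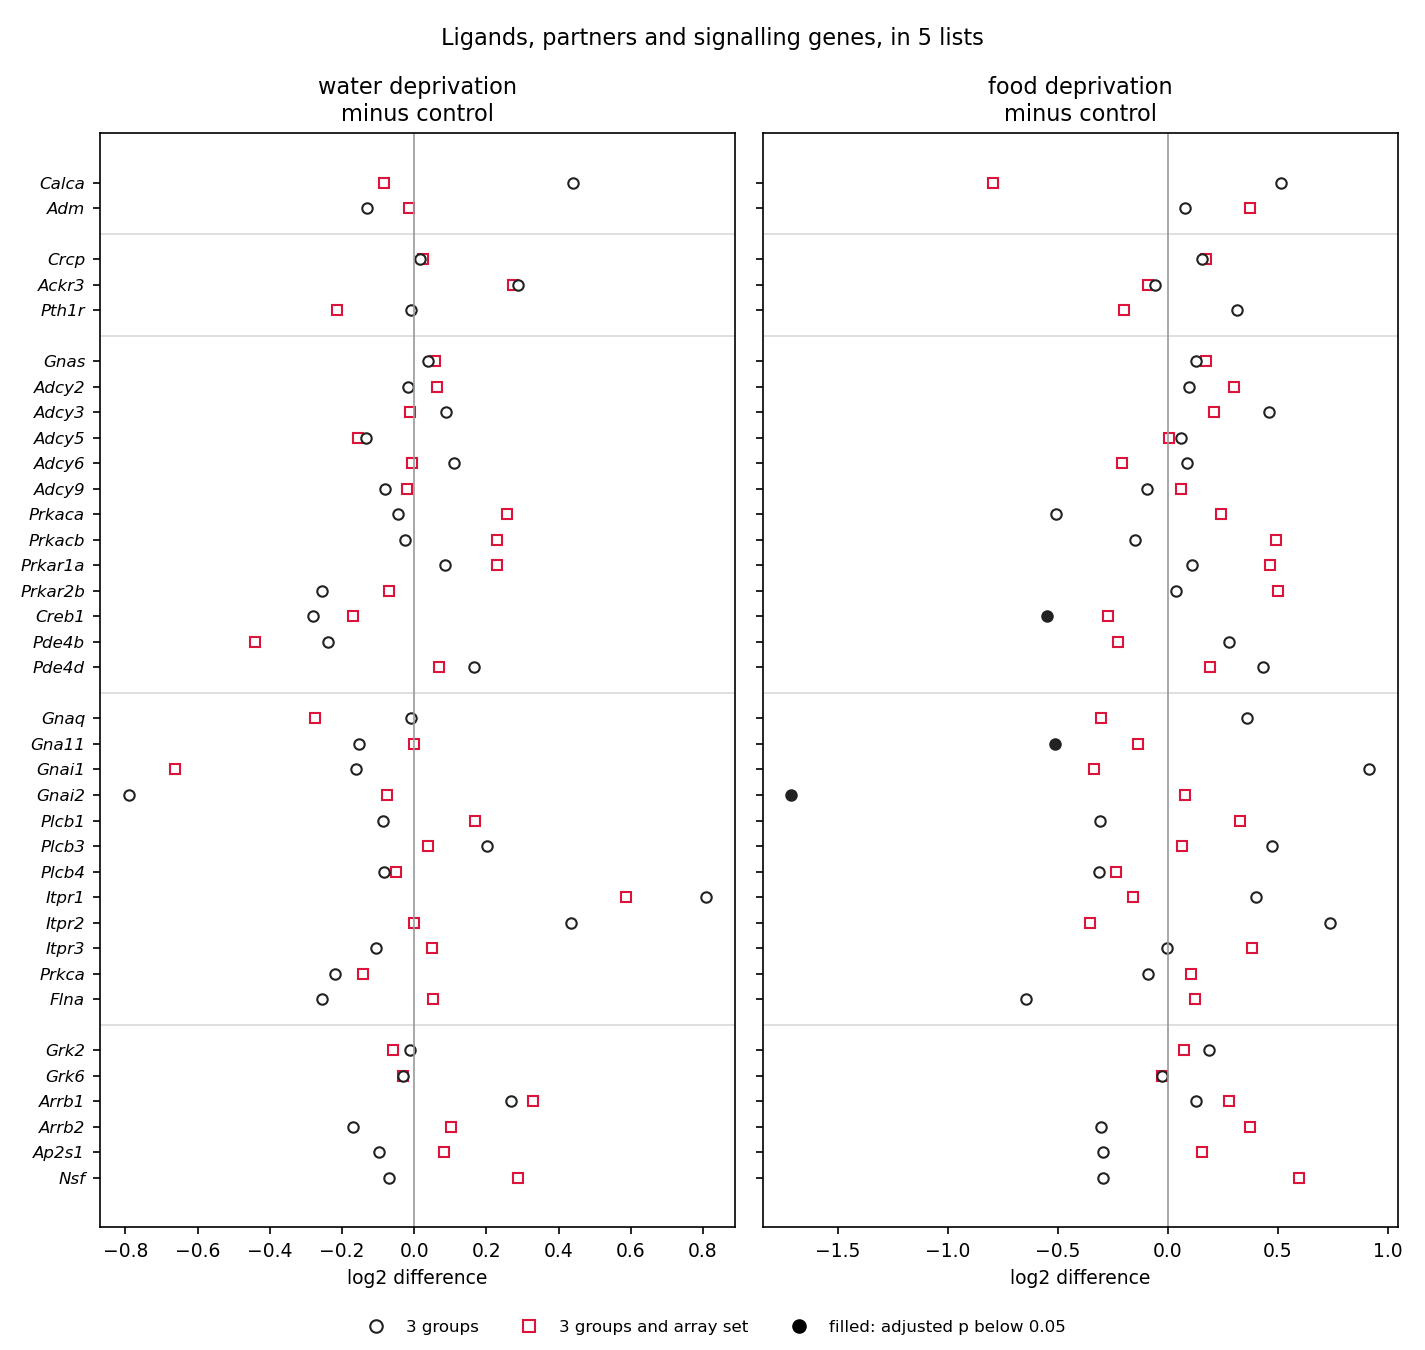
Log2 differences of the tested ligands, partners and signalling genes in water deprivation minus control (left) and food deprivation minus control (right). Grey lines part the 5 lists, circles are the fit of 3 groups and squares the fit with the array set term; the 3 filled symbols, with an adjusted p below 0.05, are Creb1, Gna11 and Gnai2 in food deprivation.

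The genes most like each member were ranked by Pearson's r of log2 values over the 15 arrays, among 11398 genes. These values describe the arrays, which share array set and tissue content. For Casr they were Hdac4 (0.95), a class IIa histone deacetylase, Adcyap1 (0.92), the precursor of the neuropeptide PACAP, and Fxyd2 (0.91), a regulator of the sodium pump. For Calcr 1387488_a_at they were Adcyap1 (0.90), Scg2 (0.88), the secretory granule protein secretogranin II, and Fxyd2 (0.87). Without the 3 low-set water-deprived arrays r fell to 0.83, 0.81 and 0.61 for Casr, and 0.72, 0.58 and 0.45 for Calcr, over 12 arrays. These 12 still hold control array 4, the highest of them for both Casr and Calcr 1387488_a_at.

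Fxyd2 was among the 6 probe sets called in water deprivation minus control with the term (1.18, SE 0.16, limma adjusted p = 0.0148). Hdac4 (0.86), Adcyap1 (1.14) and Scg2 (0.64) were not (limma adjusted p 0.153, 0.275 and 0.130). These genes were picked for their likeness to Casr or Calcr on the same arrays, so their differences are no separate evidence for either.

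The other members had other neighbours. For Ramp1 they were Adgrv1 (0.92) and Adgrg2 (0.91), both adhesion receptors, and Gatm (0.92), an enzyme of creatine synthesis. For Ramp2 they were Hap1 (0.94), the huntingtin-associated protein, Ptov1 (0.94) and Arpc4 (0.91), a subunit of the actin-nucleating Arp2/3 complex. For Calcrl they were Fbll1 (0.90), Zfp213 (0.88) and Tmem167b (0.85). For these 3 members r was between 0.83 and 0.94 without the 3 low-set water-deprived arrays.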

How the data were processed

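Each value the authors deposited is a linear signal intensity for 1 probe set. The submitters' processing notes name GCOS 1.2, and the scaling target is not given in the sources used here. Tested on the table, every array had a trimmed mean of 100.0 (2% trimmed at each end), so no further normalization was applied. Per the labels, 5 pools of 5 animals made each group, and they are treated as separate samples.

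Values were analysed as log2(signal + 16), which understates the change of dim probe sets. limma 3.58.1 (R 4.3.3) fitted the group means of all 15 arrays (12 residual degrees of freedom), with a variance trend and two-sided tests. Benjamini-Hochberg adjustment ran over the 21729 probe sets above the filter, without the 57 control probe sets. A probe set was called at an adjusted p below 0.05. Folds are on that same scale. No difference between the signals of separate probe sets was tested. Marker sums add signals over probe sets, so the bright ones weigh most. Detection calls were left out. Precision is limited by the number of arrays, as there are no counts. The method was tested on simulated data with independent spread for each probe set. A shift between the array sets was simulated only for the fit with the term, so the fit without it was not tested against such a shift.

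Probe annotation gave 1 symbol to 20832 probe sets and several to 436; all 6 genes matched RefSeq. Likeness used each gene's brightest tested probe set. The members, gene lists, array sets and naming rule were chosen with earlier results of these data known. In the pathway lists, ligands and partners were named, and of the rest those that passed and otherwise the 2 of greatest difference. Alternatives were median centring or quantile normalization, an offset of 1 or 64, no filter or the 50th percentile, no variance trend, array weights, only the 10 arrays compared, the replicate number as a block, the array set, and leaving out each array. Correlations of deviations between same-numbered arrays ran from -0.36 to 0.37, so the numbers do not pair the arrays. Figures were drawn with matplotlib 3.10.9 in Python 3.11.15.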

Additional observations from a re-analysis of the deposited data

Results flagged for a closer look

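Each group of 5 arrays was searched for an array whose gap to its nearest neighbour, as a share of the group's range, exceeded Dixon's 95% critical value. Over 24 groups (8 probe sets in 3 groups) 3 were found, where chance gives about 1 in 20. Calcr 1387488_a_at on control array 4 was the highest of its group, with a signal of 306 and a gap share of 0.858. That array was also the highest control for Casr, and without it the Calcr difference in water deprivation minus control passed with the array set term. Calcr 1387487_a_at on control array 2 was the lowest of its group, with a signal of 6.99 and a gap share of 0.800. Without it the food deprivation minus control difference was 0.57, against 0.80 with it, and was not called. Ramp2 on food-deprived array 1 was the highest of its group, with a signal of 243 and a gap share of 0.767.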

How the results depend on the processing

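Of the 6 tested probe sets, Casr and Calcr 1387488_a_at were positive in water deprivation minus control under every alternative run, and Casr was called there under none without the array set term (log2 differences of 0.62 to 1.13 and, leaving out arrays, 0.78 to 1.10). With the term, 1 probe set was called (Casr). Casr stayed called in 5 of 7 further alternatives, and 0 were called with log2(signal + 1) or with the replicate block. Leaving out each array with the term gave 0 to 2 calls. For Calcr 1387487_a_at in food deprivation minus control, 0 were called with median centring, log2(signal + 1), the replicate block or the array set term, and leaving out each array gave 0 to 1 calls. In water deprivation minus food deprivation, quantile normalization gave 1 call (Casr) and array weights 2 (Casr and Calcr 1387488_a_at), and leaving out each array 0 to 2, with both called without water-deprived array 2 and Casr also without water-deprived array 1. The replicate block changed no other call; the replicate numbers do not pair the arrays, and 1 of 15 arrays correlated best with its own number. Median centring moved the median of all tested probe sets in food deprivation minus control to -0.06, against 0.05 in the reported fit, and over all probe sets water deprivation minus food deprivation had 107 calls with quantile normalization and 101 with median centring, against 33.

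Other sign changes were among values never called. With the array set term, water deprivation minus control was 0.087 for Ramp2 and -0.10 for Calcrl 1369648_at, also in the low set alone, and food deprivation minus control was 0.49 for Ramp2, 0.82 for Casr, -0.041 for Calcrl and 0.90 for Calcr 1387488_a_at. That Calcrl value was 0.025 with quantile normalization, 0.013 with median centring, 0.018 with log2(signal + 1) and 0.13 with the replicate block. Ramp2 in water deprivation minus food deprivation was 0.065 with median centring, and Calcr 1387487_a_at 0.071 with the term and the replicate block. Leaving out each array, water deprivation minus control ranged from -0.27 to 0.067 for Ramp1 and -0.079 to 0.30 for Calcrl. With the term these were -0.36 to 0.027 and -0.32 to 0.10, with -0.0095 to 0.25 for Ramp2 and -0.017 to 0.35 for Calcr 1387487_a_at. Food deprivation minus control ranged from -0.12 to 0.12 for Calcr 1387488_a_at, and with the term from -0.26 to 0.074 for Calcrl. Water deprivation minus food deprivation ranged from -0.14 to 0.081 for Ramp2. With the term it ranged from -0.76 to 0.095 for Ramp1, -0.16 to 0.0082 for Calcrl, -0.16 to 0.072 for Calcr 1387487_a_at and -0.084 to 0.30 for Calcr 1387488_a_at. The cause of these changes was not tested. Signal over background limits the dim probe sets: 1 Calcrl probe set and Ramp3 were not tested.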
